A study of Mus musculus with 2 samples.

Results

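The canonical histone genes encode the linker histone H1 and the core histones H2A, H2B, H3 and H4, the proteins around which nuclear DNA is wound. They were taken as every gene whose symbol starts with Hist1h, Hist2h, Hist3h or Hist4h, which gave 67 of the 32285 genes in the count matrices. All 67 are annotated as protein coding in GENCODE M21 (build GRCm38). In that annotation 54 of them lie on chromosome 13 between 21715763 and 23934851, 10 on chromosome 3, 2 on chromosome 11 and 1 on chromosome 6. They comprise 6 H1, 18 H2A, 18 H2B, 12 H3 and 13 H4 genes.

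As background, most of these genes are replication dependent: their mRNA is made in S phase, when new DNA has to be packed, and is degraded when DNA synthesis ends. Such an mRNA has no poly(A) tail and ends instead just behind a short hairpin, the histone stem-loop, which the stem-loop binding protein SLBP holds during processing, export and translation. Libraries primed on poly(A), as here, therefore catch these mRNAs poorly, although some of the genes also give longer, polyadenylated transcripts, which non-dividing cells can make as well.

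The cells came from the stromovascular fraction (SVF) of perigonadal white adipose tissue (gWAT) of male Cyp1a1 fate reporter mice (Cyp1a1Cre x R26LSL-eYFP), in which cells that once expressed Cyp1a1 stay labelled with eYFP, since the Cre recombinase is driven by the promoter of that gene. For 12 weeks one group received D12450J, a low-fat diet (LFD) with 10% fat, and the other D12492, a high-fat diet (HFD) with 60% fat, and both groups were given FICZ, a ligand of the aryl hydrocarbon receptor (AHR), at 10 mg/kg 5 days before collection. Only live (DAPI-) eYFP+ cells were sequenced, so a cell had to have expressed Cyp1a1 to be included, and neither cells without eYFP nor mice without FICZ were part of the comparison. Each diet had 1 library (10x Genomics 3' v3 chemistry) from pooled mice per the study's methods, with no label that ties a cell to a mouse, and the labels give neither the age of the mice nor a strain beyond the genotype. There was hence no replicate and no test between diets, and every interval given is an exact 95% interval that covers counting error only. In pools of this kind a difference between diets, between mice and between libraries cannot be told apart.

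The LFD library held 11281 barcodes, of which 10216 passed the filters (500 to 40000 UMIs, under 12.5% mitochondrial UMIs, at least 100 genes), with a median of 10636.5 UMIs. The HFD library held 9631 barcodes, of which 8537 passed, with a median of 13231 UMIs. The barcode sequences of 22 passing cells occurred in both libraries. Cells were given a type from marker genes, one by one, and all type names end in -like because they rest on these markers alone. Endothelial-like cells, for example, had a UMI of 82.0% (LFD) and 80.6% (HFD) of the endothelial markers on average, against at most 25.3% for any other list, and plasma cell-like cells of 81.8% and 85.2% of theirs. Stromal-like cells, which carry the fibroblastic progenitor markers, had 57.4% and 67.6% of these. Mesothelial-like cells had 65.6% and 67.9% of the mesothelial markers but also 57.3% and 64.1% of the fibroblastic progenitor markers, so these types are not sharply apart: 1055 of 6299 (LFD) and 1269 of 4300 (HFD) of their cells lay within a share of 0.1 of the limit between them. In all 5.25% and 4.33% of cells stayed unassigned. A cell was called cycling if it had a UMI of at least 10 of 26 S phase or at least 10 of 26 G2/M markers, and non-cycling if it had at most 5 of each. No histone gene entered the type or the cycling call. This gave 2096 cycling and 7158 non-cycling cells in LFD, and 1865 and 5567 in HFD. Levels are in CPM, the UMIs of a gene scaled to a common total of UMIs in the same cells. A UMI stands for 1 captured 3' end, so the level of a gene is a level of capture, and genes are not compared with each other as amounts of mRNA.

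The stem-loop was searched in the longest annotated transcript of each gene, since its position decides how much of the transcript lies behind it. It was found in 43 of the 67 genes, against 80 of all 55450 annotated genes (0.144%), as an inverted repeat of 6 bases around a loop of 4. In the forms below the loop is in capitals. The first form is that of Hist1h2ap, Hist1h2ae, Hist1h1c and Hist3h2a, the fourth that of Hist1h4i and Hist2h4, and the sixth that of Hist2h2ac.
Stem-loop form in 25 genes: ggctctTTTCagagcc
Stem-loop form in 7 genes: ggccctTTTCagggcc
Stem-loop form in 6 genes: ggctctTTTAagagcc
Stem-loop form in 2 genes, the first: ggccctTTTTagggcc
Stem-loop form in 2 genes, the other: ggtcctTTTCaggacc
Stem-loop form in 1 gene: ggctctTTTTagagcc
How far the annotated transcript runs past the stem-loop differed widely between the genes. In Hist1h2ap it ended 3 bases behind it, in Hist1h2ae 151, in Hist1h4i 330, in Hist1h1c 840 and in Hist3h2a 1643 bases behind it. For Hist1h2bc and Hist1h1b no stem-loop was found in the longest transcript.

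The promoters of 62 of the 67 genes are in the RefSeq table (build GRCm38.p6, 250 bases before to 50 bases after the annotated start). 4 motifs known from histone promoters were searched on both strands, without regard to overlap. CCAAT or its reverse complement ATTGG was in 53 of 62 (85.5%) against 37.4% of all 32851 promoters, in every H1, H2A, H2B and H3 promoter and in 3 of 12 H4 promoters. TATAAA or TTTATA was in 35 (56.5%) against 13.6%. The octamer ATTTGCAT or ATGCAAAT was in 13 (21.0%) against 1.74%, namely in 7 H2A and 6 H2B promoters and in none of the other classes. AAACACA or TGTGTTT, the H1 box, was in 9 (14.5%) against 7.18%, among them 5 of 6 H1 promoters. A match is a description of the letters and does not show that a factor binds there. The promoters of Hist1h1b, Hist1h1c and Hist1h2ap are printed because the diet comparison in cycling cells turns on these 3 genes. Matches are in capitals, and each is 5' to 3' on the strand of the gene.
Hist1h1b (H1f5 in RefSeq), chr13:21780576-21780875, minus strand: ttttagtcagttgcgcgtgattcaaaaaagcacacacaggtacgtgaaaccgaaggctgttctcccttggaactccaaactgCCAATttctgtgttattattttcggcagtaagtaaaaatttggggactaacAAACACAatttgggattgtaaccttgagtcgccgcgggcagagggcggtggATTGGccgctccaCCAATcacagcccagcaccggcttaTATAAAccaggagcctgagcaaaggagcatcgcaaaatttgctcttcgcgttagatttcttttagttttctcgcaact
Hist1h1c (H1f2 in RefSeq), chr13:23738557-23738856, plus strand: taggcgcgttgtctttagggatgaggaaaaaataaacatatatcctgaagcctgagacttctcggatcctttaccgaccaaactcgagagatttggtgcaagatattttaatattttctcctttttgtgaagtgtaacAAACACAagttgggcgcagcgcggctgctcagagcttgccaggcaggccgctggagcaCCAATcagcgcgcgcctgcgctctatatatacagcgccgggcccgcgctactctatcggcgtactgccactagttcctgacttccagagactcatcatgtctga
Hist1h2ap (H2ac24 in RefSeq), chr13:21833426-21833725, minus strand: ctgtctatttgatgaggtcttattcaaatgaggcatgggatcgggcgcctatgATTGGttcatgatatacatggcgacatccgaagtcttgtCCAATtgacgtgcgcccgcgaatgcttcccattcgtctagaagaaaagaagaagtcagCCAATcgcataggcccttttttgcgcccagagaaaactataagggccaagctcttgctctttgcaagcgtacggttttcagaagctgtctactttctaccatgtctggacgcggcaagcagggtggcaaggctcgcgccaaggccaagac
In Hist1h1b the matches begin 168 (CCAAT), 117 (AAACACA), 66 (ATTGG), 53 (CCAAT) and 28 (TATAAA) bases before the start. In Hist1h1c they begin 112 (AAACACA) and 54 (CCAAT) bases before it. The Hist1h2ap promoter holds ATTGG 197 and CCAAT 158 and 100 bases before its start and no match to the other 3 motifs. Both H1 promoters thus hold the H1 box and Hist1h2ap does not.

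The first question was which of these genes the libraries captured. The LFD library held 31228 and the HFD library 35616 UMIs of canonical histone genes, 281 and 315 CPM. Of the 67 genes, 54 had at least 10 UMIs in LFD and 54 in HFD, 51 of them in both, and Hist1h4m, Hist1h2bq, Hist1h2ba and Hist1h2aa were listed at 0 in both. The UMIs were concentrated in a few genes: the 9 with the most UMIs held 87.2% of them and the 24 with at least 200 UMIs 95.8%, whereas the other 43 genes together held 2803 UMIs and none of them over 196. For shares after thinning, cells under 2000 UMIs were left out and each other cell was thinned to 2000 UMIs. Of these cells 34.2% in LFD and 36.0% in HFD had a UMI of any canonical histone gene. Over all passing cells without thinning it was 70.1% and 74.6%. The cells left out were unevenly spread, with 172 of 580 LFD non-cycling endothelial-like and 154 of 177 LFD non-cycling neutrophil-like cells.

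**Figure D1:**
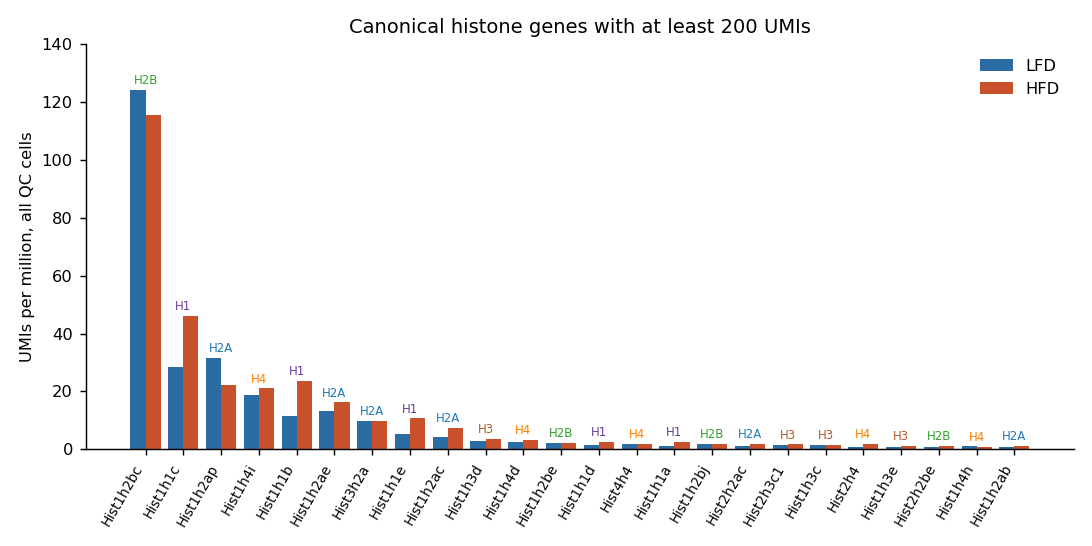
Level in CPM (UMIs scaled to a common total) over all passing cells of the LFD and the HFD library, for the 24 canonical histone genes with at least 200 UMIs over both libraries. Genes are in falling order of their UMIs, with the histone class written above the bars. Each bar is 1 library and starts at 0. Hist1h2bc reached 124 CPM in LFD and 115 CPM in HFD, and Hist1h1c, the next in HFD, 46.1 CPM.

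Among the H1 genes, whose products bind the linker DNA between nucleosomes, Hist1h1c (ENSMUSG00000036181) had 3157 UMIs in LFD and 5217 in HFD, which is 28.4 and 46.1 CPM. Hist1h1b (ENSMUSG00000058773) had 1275 and 2680 UMIs, 11.5 and 23.7 CPM, and Hist1h1e 607 and 1210 UMIs. Hist1h1d (156 and 292 UMIs) and Hist1h1a (115 and 288 UMIs) were captured less often. All 5 had more UMIs in HFD. The 3' end of Hist1h1e lies inside the annotated Hist1h2be gene on the same strand, so its UMIs cannot be placed with certainty.

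Of the H2A genes, whose products pair with H2B in the nucleosome, Hist1h2ap (ENSMUSG00000094777) was the most captured, with 3521 UMIs in LFD and 2515 in HFD, 31.7 and 22.2 CPM. Hist1h2ae had 1474 and 1832 UMIs, Hist3h2a, which lies apart from the large cluster, 1069 and 1119, and Hist1h2ac 480 and 844. Hist2h2ac (146 and 203) and Hist1h2ab (75 and 140) followed. The 75-base stretches in the last 400 bases of Hist1h2ap all recur in other H2A rows, and 39.9% of those of Hist1h2ae do, so reads could be shared or lost between such copies and the single-gene values are uncertain to that degree. No such stretch of Hist1h2bc, Hist1h1b, Hist1h1c, Hist1h4i, Hist3h2a or Hist1h2ac recurred.

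A single H2B gene, Hist1h2bc (ENSMUSG00000018102), held 40.1% of all canonical histone UMIs, with 13798 in LFD and 13039 in HFD, 124 and 115 CPM. The other H2B genes were rare, Hist1h2be with 240 and 232 UMIs, Hist1h2bj with 201 and 191 and Hist2h2be with 98 and 129. Among H3 genes Hist1h3d had 325 and 406 UMIs, Hist1h3c 153 and 175, Hist2h3c1 153 and 195 and Hist1h3e 104 and 126. Hist1h4i (ENSMUSG00000060639) was the leading H4 gene with 2099 and 2377 UMIs, ahead of Hist1h4d (293 and 375), Hist4h4 (211 and 194), Hist1h4h (113 and 106) and Hist2h4 (86 and 207). The split by class over all cells shifted from LFD to HFD: H1 genes went from 17.0% to 27.2%, H2A genes from 22.5% to 19.5% and H2B genes from 47.5% to 39.9%, while H4 genes were at 9.597% and 9.82% and H3 genes at 3.42% and 3.53%. The libraries differed in make-up, with plasma cell-like cells at 4.40% (LFD) and 17.5% (HFD) and stromal-like cells at 48.6% and 27.7% of cells, and the lower H2B share was not seen in each type. It was 59.4% and 58.3% in stromal-like, 55.3% and 56.3% in mesothelial-like, 31.7% and 38.1% in endothelial-like, 14.3% and 16.6% in B-like cells, and for plasma cell-like cells 15.8% and 14.01%. The H1 share was higher and the H2A share lower in HFD in each of these 5 types.

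The UMIs were set against the length annotated behind the stem-loop. The 22 genes with at least 100 bases behind it had a median of 376.5 UMIs over both libraries and 26070 in all, and 11 of them had a poly(A) signal in their last 50 bases. The 21 genes with fewer bases behind it had a median of 60 UMIs and 8465 in all, and 1 had such a signal. The 24 genes without a stem-loop in the longest transcript had a median of 42 UMIs and 32309 in all, most of them from Hist1h2bc. Several of these transcripts are short as annotated, with 312 bases in Hist1h4k, 381 in Hist1h2bn, 393 in Hist1h2ak and 411 in Hist1h3i. A stem-loop behind such an annotated end would not have been found, so this group is one of annotation. Hist1h2ap, with 3 bases behind its stem-loop, had the most UMIs of the genes that end close to it. These values describe the annotation beside the capture, and which transcript end a UMI came from was not tested.

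The next question was how capture differed between cycling and non-cycling cells of the same type. The sum over all canonical histone genes was higher in cycling cells in each of the 11 comparisons with enough cells (at least 30 cycling and 50 non-cycling), 6 in LFD and 5 in HFD. B-like cells differed most, with 100 CPM in non-cycling and 618 CPM in cycling LFD cells, a ratio of 6.17 (5.43 to 7.02), and 105 and 661 CPM in HFD, a ratio of 6.28 (5.51 to 7.17). In plasma cell-like cells the ratio was 3.06 (2.74 to 3.44) in LFD and 3.46 (3.29 to 3.65) in HFD, and in LFD T/ILC2-like cells, named for T cell and ILC2 (innate lymphoid) markers, 3.96 (3.05 to 5.21). Endothelial-like cells went from 225 to 474 CPM in LFD, a ratio of 2.11 (1.90 to 2.34), and from 173 to 426 CPM in HFD, a ratio of 2.46 (2.11 to 2.87). Stromal-like cells had ratios of 1.54 (1.48 to 1.59) and 1.34 (1.28 to 1.41), and mesothelial-like cells, named for markers of the serous lining of the fat pad, the lowest, 1.32 (1.26 to 1.39) and 1.16 (1.11 to 1.21). The size of the ratios depended on Hist1h2bc: without it they ran from 2.70 to 8.36, with a median of 3.81, in the same order of types in LFD, while in HFD endothelial-like (3.81) and plasma cell-like cells (3.73) changed places. The sign of the difference rested in part on 2 genes: without Hist1h2ap and Hist1h1b the ratios ran from 0.915 to 3.40, with a median of 1.81, and those of mesothelial-like cells were 0.974 (0.920 to 1.03) in LFD and 0.915 (0.874 to 0.959) in HFD. The stricter cell filter (1000 to 25000 UMIs, under 5% mitochondrial UMIs) moved the LFD B-like ratio to 18.9. Cycling cells were also deeper, with a median of 16592 against 10909 UMIs in LFD stromal-like cells and 12461 against 3441.5 UMIs in LFD endothelial-like cells, and the part of depth in these ratios was not tested.

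The classes differed in this respect. H2A genes had cycling to non-cycling ratios of 3.72 to 18.1 (median 6.47), but of 2.25 to 6.03 (median 3.70) without Hist1h2ap. H1 genes had ratios of 2.29 to 13.6 (median 2.79), H3 genes of 1.27 to 7.31 (median 3.01) and H4 genes of 1.93 to 5.02 (median 2.78). H2B genes had ratios of 0.496 to 2.68 with a median of 0.938. Without Hist1h2bc, which holds most of their UMIs, the other H2B genes had ratios of 1.68 to 4.62 (median 3.31), above 1 in all 11 comparisons. Over all types, non-cycling cells drew 68.1% (LFD) and 58.7% (HFD) of their canonical histone UMIs from H2B genes, and 65.5% and 56.2% from Hist1h2bc alone. In cycling cells H2A genes took the first place in LFD with 39.0%, and H1 genes in HFD with 34.3%. Within types the first place varied: in cycling stromal-like cells it was held by H2B genes in both libraries (32.4% and 35.01%), in plasma cell-like cells by H2A genes in both (47.6% and 35.1%), and in endothelial-like and B-like cells by H2A genes in LFD (47.3% and 54.0%) and H1 genes in HFD (37.4% and 49.6%).

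**Figure D2:**
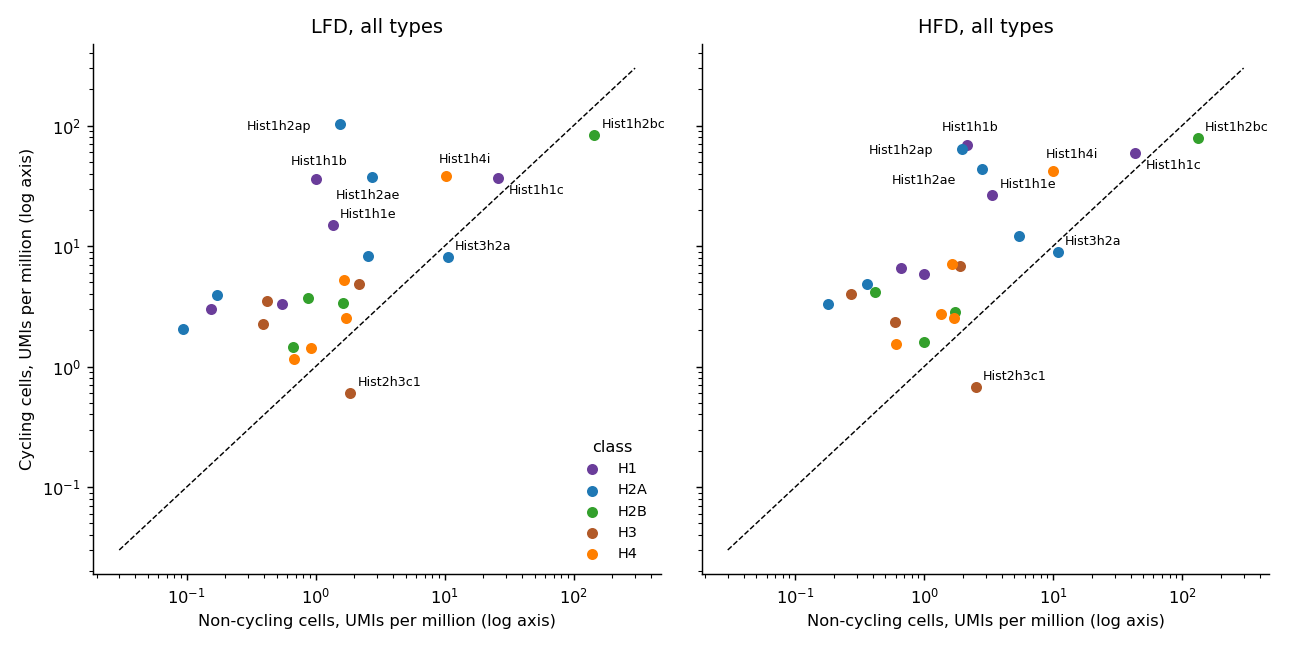
Level of the 24 named canonical histone genes in non-cycling cells (x axis) and cycling cells (y axis) over all cell types, in CPM (UMIs scaled to a common total) on log axes, one panel per library, coloured by histone class, with a dashed line where both are equal. Hist1h2ap and Hist1h1b lie far above the line, Hist1h2bc (145 against 83.1 in LFD) and Hist2h3c1 below it.

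Hist1h2ap and Hist1h1b were the most captured of the genes found almost entirely in cycling cells. Over all types, Hist1h2ap had 1.56 CPM in non-cycling and 102 CPM in cycling LFD cells, and at 1.97 and 64.1 CPM in HFD. Hist1h1b was at 1.01 and 35.9 CPM in LFD and at 2.13 and 68.6 CPM in HFD. Both were higher in cycling cells in every comparison. The ratio of Hist1h2ap was 15.1 to 132 (median 64.8), and that of Hist1h1b lay from 17.3 upwards wherever non-cycling cells had a UMI, while 2 groups, LFD T/ILC2-like and HFD endothelial-like cells, had none of its UMIs in non-cycling cells. After thinning to 2000 UMIs, 7.20% of cycling and 0.277% of non-cycling LFD stromal-like cells had a Hist1h2ap UMI, and 34.4% and 0.277% of LFD B-like cells. Of non-cycling macrophage-like cells, which serve as the background because they hardly divide, 0.205% (LFD) and 0.447% (HFD) had one. Non-cycling plasma cell-like cells had 2.60% (0.712 to 6.52%) in LFD and 1.29% (0.591 to 2.43%) in HFD, from 4 and 9 cells. Both intervals overlap those of the macrophage-like cells, up to 1.14% and 1.61%. Without thinning the shares were 10.97% and 7.63%, against 0.931% and 1.06% in macrophage-like cells, whose median depth was lower. The level in non-cycling plasma cell-like cells was 11.36 (LFD, 19 UMIs) and 6.76 CPM (HFD, 59 UMIs), above that over all types. The overlap of the thinned shares thus does not place these cells at the background. The thinned LFD shares of dendritic cell-like (1.64%) and neutrophil-like cells (4.35%) rested on 1 cell each.

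Of the 24 named genes, 16 were higher in cycling cells in all their comparisons. Beside those 2, the ones with a ratio of at least 2 in each were Hist1h2ae (6.82 to 39.5), Hist1h1e (4.75 to 15.6), Hist2h2ac (11.9 to 37.4), Hist1h4i (2.24 to 10.0), Hist1h4d (2.17 to 6.46) and, in 3 to 5 comparisons, Hist1h2ab, Hist1h2bj, Hist1h3c and Hist1h3e. The remaining 5, Hist1h1a, Hist1h1d, Hist1h3d, Hist1h4h and Hist2h2be, were above 1 but under 2 in at least 1 comparison. In the opposite direction, Hist1h2bc was below 1 in 9 of 11 comparisons (0.360 to 1.91), Hist3h2a in 9 of 10 and Hist2h3c1 in 5 of 5 (0.138 to 0.981). LFD endothelial-like cells had the lowest Hist1h2bc ratio, with 116 CPM in non-cycling and 41.7 CPM in cycling cells, and HFD plasma cell-like cells the highest, with 29.7 and 56.6 CPM. Hist1h1c reached 2-fold in none of its 11 comparisons and was below 1 in 3. It ran from 0.526 (0.350 to 0.775) in LFD endothelial-like to 1.86 (1.16 to 2.98) in HFD B-like cells. In LFD mesothelial-like cells it was at 1.70 (1.44 to 2.01). The captured histone mRNAs thus fell into a group tied to cycling cells, led by Hist1h2ap and Hist1h1b, and a group present in cells of either state, led by Hist1h2bc, Hist1h1c and Hist3h2a.

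The same was seen gene by gene against all genes of the matrices, with a minimum of 20 UMIs in the cells compared. In LFD stromal-like cells 19 of 32 canonical histone genes were at least 2-fold higher in cycling cells, against 5.35% of all genes. The counts were 12 of 19 in mesothelial-like (5.72% of all genes), 7 of 11 in endothelial-like (6.61%), 8 of 12 in B-like (13%), 13 of 20 in plasma cell-like (24.3%) and 5 of 7 in T/ILC2-like cells (12.6%). In HFD they were 11 of 19 in stromal-like (5.62%), 12 of 21 in mesothelial-like (5.94%), 5 of 8 in endothelial-like (8.18%), 6 of 10 in B-like (10.1%) and 29 of 37 in plasma cell-like cells (19.5%). Few were lower by as much. In LFD these were 2 of 32 in stromal-like (7.43% of all genes), 2 of 19 in mesothelial-like (3.61%) and 1 of 11 in endothelial-like cells (9.51%), and 0 in B-like (2.48%), plasma cell-like (1.1%) and T/ILC2-like cells (7.26%). In HFD they were 2 of 19 in stromal-like (9.99%), 3 of 21 in mesothelial-like (3.97%) and 1 of 8 in endothelial-like cells (14.8%), and 0 in B-like (5.57%) and plasma cell-like cells (1.35%).

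Cycling cells were then split by their markers into cells with S markers only, with S and G2/M markers, and with G2/M markers only. The sum of canonical histones was highest in the middle range, with 181, 560 and 392 CPM in LFD and 216, 619 and 414 CPM in HFD. Hist1h2ap followed this course with 20.8, 170 and 38.2 CPM in LFD and 14.2, 97.7 and 21.9 CPM in HFD. So did Hist1h1b, with 9.50, 59.8 and 11.3 CPM and 12.0, 108 and 17.5 CPM. In the types in which the ranges could be compared both genes were also highest with both sets of markers, by a margin that differed between types. LFD B-like cells had 364 CPM of Hist1h2ap with both sets against 299 CPM with G2/M markers only, and LFD plasma cell-like cells 201 CPM against 95.4 CPM with S markers only, whereas LFD stromal-like cells had 131 CPM against 8.46 and 4.30 CPM with S and with G2/M markers only. Hist1h2bc ran the other way, at 70.6, 54.1 and 154 CPM in LFD and 74.95, 58.2 and 146 CPM in HFD. Hist1h1c was lowest with S markers only and highest with G2/M markers only, at 13.4, 37.3 and 56.9 CPM and at 30.4, 63.8 and 80.3 CPM. These 2 courses are over all types and did not hold in each. In plasma cell-like cells Hist1h1c was highest with S markers only, at 52.6, 41.2 and 43.1 CPM in LFD and 98.1, 75.2 and 53.3 CPM in HFD, and in B-like cells Hist1h2bc was lowest with S markers only (21.9 and 3.16 CPM). Depth moved with these ranges, with medians of 15251, 18303 and 12765 UMIs in LFD and 19900, 21756 and 15552 in HFD, and a cell needs depth to show markers of both sets. Its part in the course was not tested.

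**Figure D3:**
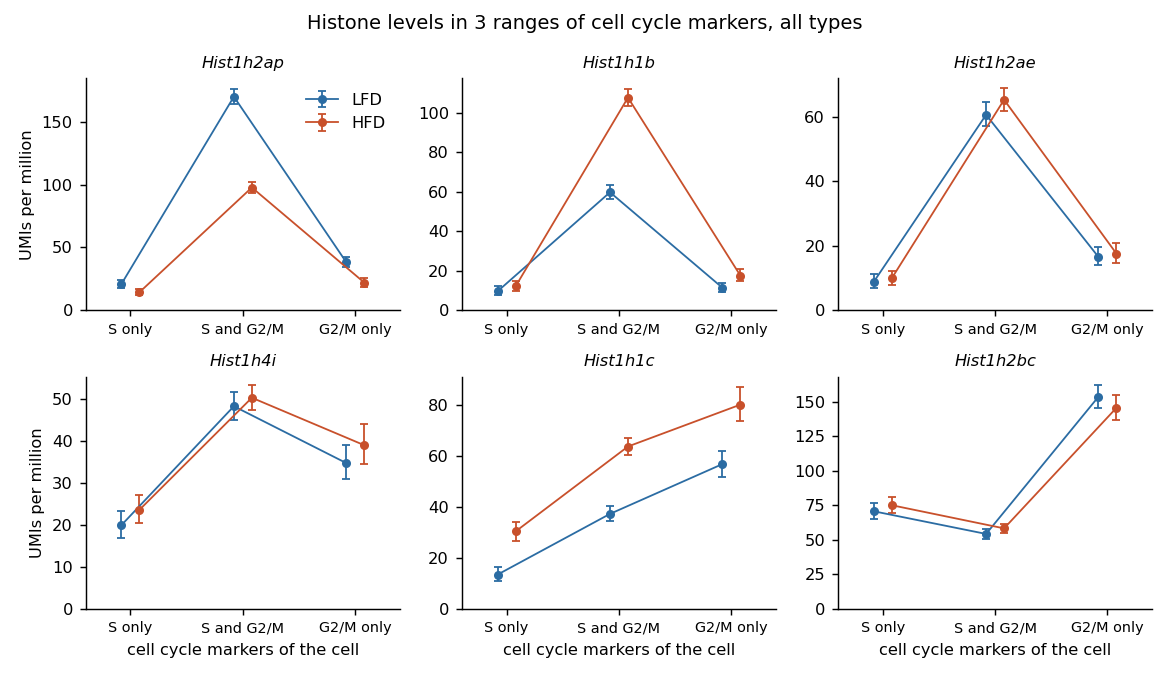
Level in CPM (UMIs scaled to a common total) of Hist1h2ap, Hist1h1b, Hist1h2ae, Hist1h4i, Hist1h1c and Hist1h2bc in cycling cells with S markers only, S and G2/M markers, and G2/M markers only, over all cell types, for LFD and HFD, with exact Poisson intervals for counting error. Hist1h2ap and Hist1h1b peak in the middle range, and Hist1h2bc is lowest there.

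The diet comparison in cycling cells was possible in 5 types. The sum of canonical histones differed little, with HFD to LFD ratios of 0.952 (0.907 to 0.998, but 1.01 under a stricter cycling minimum) in stromal-like, 0.893 (0.850 to 0.938) in mesothelial-like, 0.899 (0.781 to 1.03) in endothelial-like, 1.07 (0.984 to 1.16) in B-like and 1.11 (1.07 to 1.16) in plasma cell-like cells. Under 5% mitochondrial UMIs the endothelial-like sum was 453 (LFD) and 626 CPM (HFD), and the B-like one 811 and 721 CPM. These came from 12 and 11 HFD cells, and both lay on the other side of 1. With the UMI limits as well the endothelial-like sum was 446 and 638 CPM, from 11 HFD cells. Beneath the sum over all cycling cells the classes moved apart. H1 genes were higher in HFD in all 5 types, with ratios of 1.40 (1.27 to 1.54), 1.249 (1.13 to 1.37), 1.501 (1.17 to 1.92), 2.15 (1.87 to 2.47) and 1.93 (1.77 to 2.11) in the same order. H2A genes were lower in HFD in all 5, with ratios of 0.599 (0.541 to 0.662), 0.610 (0.554 to 0.671), 0.510 (0.390 to 0.657), 0.593 (0.514 to 0.681) and 0.821 (0.771 to 0.874). The size of several of these varied with the cells kept: the stromal-like H2A ratio was 0.251 under the stricter cell filter and 0.406 with its UMI limits alone, the mesothelial-like one 0.440 and 0.494, and the endothelial-like one 0.766 in cells with both S and G2/M markers. Under 5% mitochondrial UMIs, H2A was at 247 (LFD) and 207 CPM (HFD) in endothelial-like cells, against 224 and 114 CPM over all cycling cells. In B-like cells it was at 369 and 140 CPM, against 334 and 198 CPM. H1 in endothelial-like cells was at 72.0 and 235 CPM, against 106 and 159 CPM. These values rest on 12 endothelial-like and 11 B-like HFD cells. The ratios of H2B genes were 0.883 to 1.27, of H3 genes 0.771 to 1.06 and of H4 genes 0.889 to 1.14, and of these 15 only that of H2B in mesothelial-like cells had an interval that left out 1.

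Most of the lower H2A level was that of Hist1h2ap. In stromal-like cells it had 63.1 (LFD) and 27.1 CPM (HFD), a ratio of 0.430, and at 74.2 and 32.9 CPM in mesothelial-like cells, a ratio of 0.444. In endothelial-like cells it was at 129 and 45.02 CPM (0.348), in B-like cells at 233 and 110 CPM (0.473) and in plasma cell-like cells at 172 and 109 CPM (0.633). All 5 intervals lay below 1. Without Hist1h2ap the H2A ratios were 0.857, 0.867, 0.730, 0.870 and 1.08. Hist1h2ae, an H2A gene that shares part of its 3' sequence with Hist1h2ap, was at 0.692, 0.799, 0.500, 0.716 and 1.08. Other named H2A genes did not follow: Hist1h2ac (0.801 to 2.12) and Hist2h2ac (0.921 to 1.71) were above 1 in 4 of 5 types each. Hist1h2ab was above 1 in 2 of 3 types (0.323 to 1.58). None of the intervals of these genes lay above 1.

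On the side of H1, Hist1h1b was higher in HFD in all 5 types. Its levels were 22.6 and 34.3 CPM in stromal-like (1.52), 28.2 and 41.2 in mesothelial-like (1.46), 46.0 and 69.1 in endothelial-like (1.503), 91.1 and 199.9 in B-like (2.19) and 46.3 and 99.2 in plasma cell-like cells (2.14), and all 5 intervals lay above 1. Hist1h1c had ratios of 1.41, 1.11, 2.56, 1.90 and 1.76, with 4 intervals above 1, the exception being mesothelial-like cells. Hist1h1e was above 1 in all 5 types as well (1.04, 1.34, 1.03, 2.08 and 1.93), with the intervals of B-like and plasma cell-like cells above 1. Hist1h1a was above 1 in the 4 types compared (1.36 to 3.42), but Hist1h1d in 3 of 5 only (0.495 to 2.25). Of all 7950 genes compared in the 5 types, 0.805% had a ratio of at least 1.25 in each, and of the 13 canonical histone genes compared 1 did, Hist1h1b. A ratio of at most 0.8 in each was found for 0.704% of all genes and for 1 of the 13, Hist1h2ap. Above 1 in each were 13.3% of all genes and 3 of the 13, and below 1 in each 9.46% and 1 of the 13, shares near the background. The median gene itself lay off 1, at a log2 ratio of 0.12 in stromal-like, 0.13 in mesothelial-like and endothelial-like, 0.07 in B-like and -0.11 in plasma cell-like cycling cells.

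**Figure D4:**
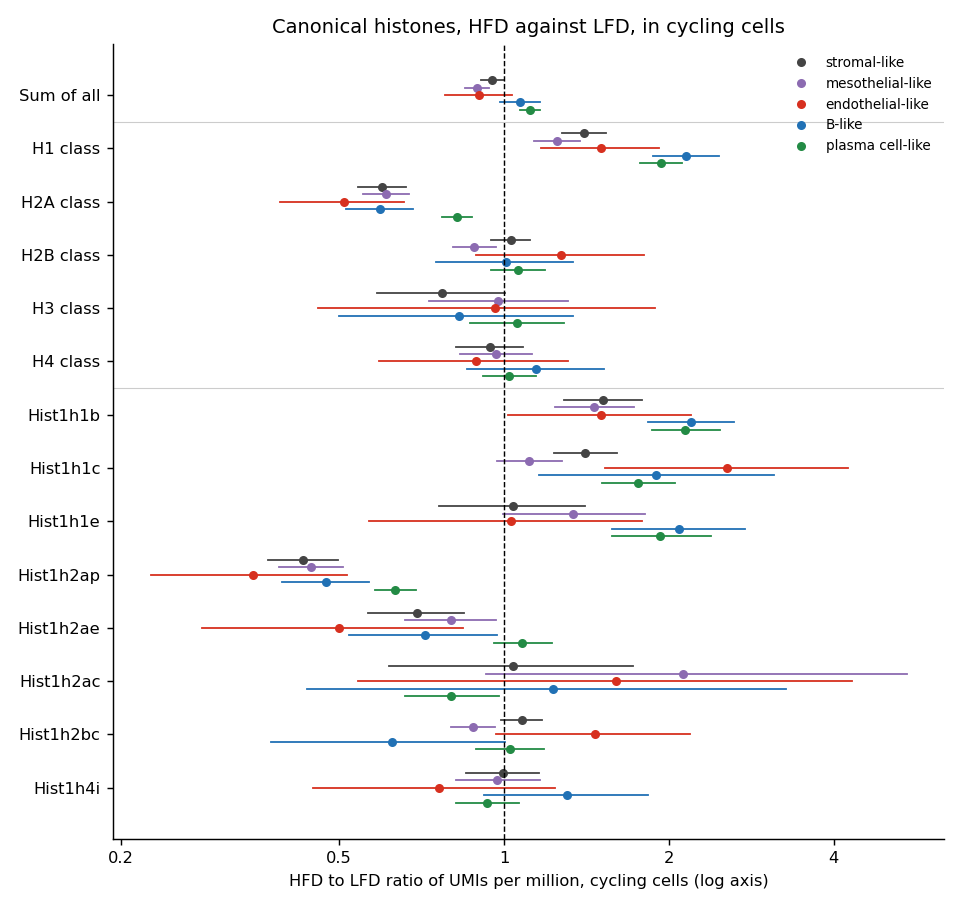
HFD to LFD ratio of CPM in cycling cells of 5 types for the sum of all canonical histones, the 5 histone classes and 8 single genes, on a log axis, with exact intervals for counting error and a line at 1. All points of the H1 class lie above 1 (1.249 to 2.15) and all points of the H2A class below it (0.510 to 0.821).

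The Hist1h1b ratio in stromal-like and mesothelial-like cells changed with the depth of the cells kept. Of the cycling cells, 59 of 805 LFD and 111 of 398 HFD stromal-like cells had more than 25000 UMIs, and 51 of 388 and 172 of 476 mesothelial-like cells. With cells of 1000 to 25000 UMIs only, Hist1h1b in stromal-like cells had 21.8 (LFD) and 18.2 CPM (HFD), a ratio of 0.836, and the ratio in mesothelial-like cells was 1.15. When the mitochondrial limit was lowered as well, to 5%, the ratios were 0.330 and 0.897, with 73 HFD cells left in either type. The H1 ratio in stromal-like cells went to 1.15 and 1.07 by these steps. In stromal-like and mesothelial-like cells the Hist1h2ap ratio went further below 1 by the same steps. With cells of 1000 to 25000 UMIs the gene was at 63.8 and 14.96 CPM in stromal-like and at 70.1 and 23.7 CPM in mesothelial-like cells, ratios of 0.234 and 0.338, and with both limits the ratios were 0.117 and 0.289. The other types did not follow both steps. In B-like cells the Hist1h2ap ratio was 0.473 over all cycling cells, 0.474 with the UMI limits and 0.156 with both, the last from 10 HFD cells. In plasma cell-like cells it was 0.633, 0.679 and 0.668. In endothelial-like cells it was 0.348, 0.278 and 0.452, the last from 11 HFD cells. Hist1h1b shifted in smaller groups as well. Under 5% mitochondrial UMIs it was at 27.2 (LFD) and 140 CPM (HFD) in endothelial-like cells, with 12 HFD cells left. In B-like cells it was at 132 and 172 CPM, with 11 HFD cells left. With both limits the levels were 29.3 and 161 CPM in endothelial-like and 138 and 141 CPM in B-like cells, from 11 and 10 HFD cells. In plasma cell-like cells they were 49.8 and 108 CPM. The part of depth and of the mitochondrial share in these shifts was not tested.

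The share of Hist1h1b among the UMIs of Hist1h1b and Hist1h2ap together does not depend on the scaling of the libraries. The pair was chosen because the diet ratios of these genes lay on opposite sides of 1, so the direction of the share follows from the values above and its size is given as a description. In LFD cycling cells it was 26.4% in stromal-like, 27.5% in mesothelial-like, 26.2% in endothelial-like, 28.1% in B-like, 21.2% in plasma cell-like and 27.8% in T/ILC2-like cells. In HFD it was 55.8%, 55.6%, 60.6%, 64.4%, 47.7% and 30.3%. The T/ILC2-like value came from 25 HFD cells (15.6 to 48.7%), and its interval overlaps that of LFD. With 1000 to 25000 UMIs per cell the share was 25.4% and 54.9% in stromal-like and 27.5% and 56.3% in mesothelial-like cells, beside the values over all cycling cells given above. With under 5% mitochondrial UMIs the LFD share was 15.2% (8.58 to 24.2%) in endothelial-like and 33.8% in B-like cells.

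**Figure D5:**
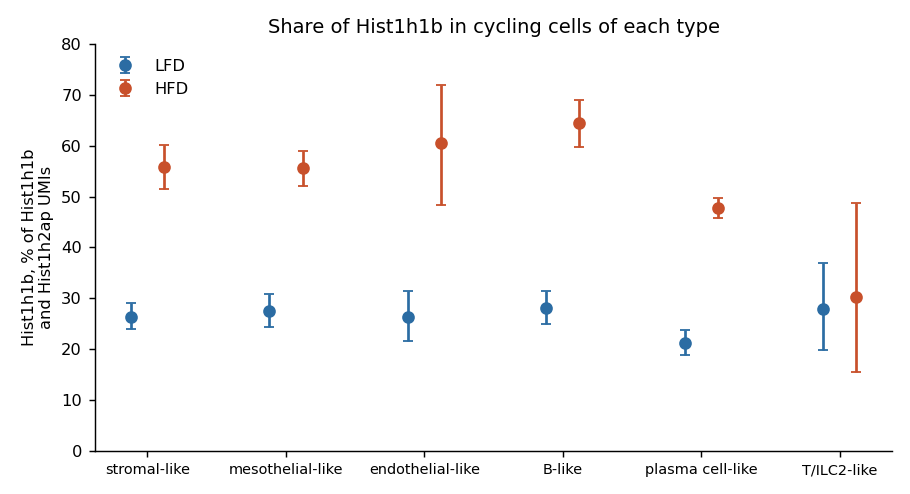
Hist1h1b as a percentage of the UMIs of Hist1h1b and Hist1h2ap together in cycling cells of 6 types, LFD and HFD, with exact binomial intervals for counting error. The 6 LFD values lie between 21.2% and 28.1%, and 5 of the 6 HFD values between 47.7% and 64.4%.

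Endothelial-like cells numbered 756 in LFD and 702 in HFD, with 135 (17.9%, 15.2 to 20.8%) and 47 (6.70%, 4.96 to 8.80%) cycling. Over all endothelial-like cells the sum of canonical histones had an HFD to LFD ratio of 0.720 (0.661 to 0.785), against 0.770 (0.682 to 0.869) in non-cycling and 0.899 (0.781 to 1.03) in cycling cells. Hist1h2ap over all endothelial-like cells had 46.3 (LFD) and 8.14 CPM (HFD), a ratio of 0.176 (0.115 to 0.259). Nearly all of it lay in cycling cells, 239 of 242 UMIs in LFD and 28 of 29 in HFD, so the ratio over all cells holds both the share of cycling cells and the level within them. Within cycling cells it was 0.348 (0.226 to 0.516). In LFD 63 of 135 cycling cells had a Hist1h2ap UMI, at most 12 in a cell. In HFD 12 of 47 did, at most 7 in a cell, and 5 cells held 75% of the UMIs. The marker ranges also differed, with 31, 72 and 32 cells with S, both and G2/M markers in LFD and 19, 13 and 15 in HFD. In the cells with both sets of markers, 13 in HFD, the ratio was 0.472 (0.290 to 0.732), with 205 CPM in LFD and 96.8 CPM in HFD. This interval overlaps that over all cycling cells, and the part of the cycle in these ratios was not tested. With under 5% mitochondrial UMIs the ratio in cycling cells was 0.627, with 12 HFD cells left.

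Of 16 canonical histone genes compared over all endothelial-like cells, 4 were at least 2-fold lower in HFD (2.44% of all genes) and 0 at least 2-fold higher (5.84% of all genes). The 4 were Hist1h2ap, Hist1h2ae with 20.3 and 5.05 CPM (0.249, 0.142 to 0.413), Hist1h1d with 4.21 and 1.40 CPM (0.333, 0.0986 to 0.902) and Hist1h4i with 22.4 and 9.83 CPM (0.439, 0.292 to 0.645). Within cycling cells 2 of 13 were lower by as much or more (3.22% of all genes) and 1 higher (5.32%). The higher one was Hist1h1c with 19.5 and 49.8 CPM, a ratio of 2.56 (1.53 to 4.25), and of the lower ones Hist1h2ap had an interval that left out 1. Within non-cycling cells 2 of 8 were lower (2.36%) and 0 higher (5.26%). Hist1h4i was at 10.03 and 3.37 CPM there, a ratio of 0.336 (0.140 to 0.728), and Hist1h2bc at 116 and 77.4 CPM, a ratio of 0.668 (0.559 to 0.797). Median depth of non-cycling endothelial-like cells was 3441.5 UMIs in LFD and 3089 in HFD.

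In non-cycling cells of the other types the sum of canonical histones had HFD to LFD ratios of 0.701 to 1.10. It was at 218 and 237 CPM in stromal-like (1.09, 1.05 to 1.13, but 0.940 under the stricter cell filter), 289 and 295 in mesothelial-like (1.02), 100 and 105 in B-like (1.05), 204 and 201 in plasma cell-like (0.985), 181 and 192 in macrophage-like (1.06), 152 and 167 in dendritic cell-like (1.10), 179 and 126 in T/ILC2-like (0.701, 0.484 to 1.01) and 258 and 285 CPM in neutrophil-like cells (1.10). Mesothelial-like cells thus had the highest levels of the types with more than 100 non-cycling cells in both libraries and B-like cells the lowest. Hist1h2bc set much of that order, with 212 and 204 CPM in mesothelial-like, 151 and 159 in stromal-like, 65.5 and 76.5 in macrophage-like, 29.7 and 25.2 in B-like and 17.9 and 13.5 CPM in T/ILC2-like cells. In plasma cell-like cells it was at 66.4 and 29.7 CPM, a ratio of 0.447, whereas Hist1h1c went from 32.3 to 61.1 CPM there (1.89). Hist1h1c was also higher in HFD in non-cycling stromal-like (22.4 and 35.6 CPM, 1.59) and mesothelial-like cells (26.8 and 45.3 CPM, 1.69), and not in non-cycling endothelial-like (37.0 and 37.8 CPM, 1.02), B-like (0.940) or macrophage-like cells (0.807).

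Counted over all cells of a type, with at least 20 UMIs in both libraries summed, some canonical histone genes were 2-fold or more apart between diets in either direction. These were 6 of 37 in stromal-like cells (8.02% of all genes), 3 of 32 in mesothelial-like (4.78%), 4 of 16 in endothelial-like (8.28%), 3 of 20 in B-like (5.59%) and 7 of 43 in plasma cell-like cells (8.46%). In the smaller types they were 2 of 10 in macrophage-like (5.85%), 2 of 7 in dendritic cell-like (8.55%), 3 of 8 in T/ILC2-like (10.1%) and 0 of 2 in neutrophil-like cells (18.3%).

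Some named genes differed by as much with an interval that left out 1. In stromal-like cells 5 of 37 canonical histone genes were lower over all cells (3.12% of all genes) and 1 higher (4.89%). Hist1h2bj had ratios of 0.298 over all, 0.250 in non-cycling and 0.294 in cycling cells, Hist1h2ab 0.323 in cycling and Hist1h4d 0.447 in non-cycling cells, whereas Hist1h1a was at 2.08 over all (0.549 under the stricter cell filter) and Hist2h3c1 at 2.19 in non-cycling cells. In B-like cells 5 of 16 were higher in cycling cells (2.56% of all genes) and 1 lower (5.36%), among them Hist1h1a at 3.42, Hist1h1b at 2.19 and Hist1h1e at 2.08. In plasma cell-like cells 7 of 38 were higher in cycling cells (1.84%) and 1 lower (7.06%), and Hist1h1b (2.14) and Hist1h1d (2.25) were the ones by the rule for named genes. Non-cycling plasma cell-like cells had ratios of 3.58 for Hist2h4, 3.19 for Hist1h1b and 2.22 for Hist1h1e. The 155 LFD cells held 3 UMIs of Hist1h1b and 7 of Hist1h1e, against 50 and 81 in HFD, and Hist2h4 had 56 in HFD. All of these ratios rest on few LFD UMIs. In the small types cycling and non-cycling cells were pooled. There Hist1h2ap was at 0.357 in T/ILC2-like and 0.294 in dendritic cell-like cells, Hist1h1b at 0.407, with Hist1h4i at 0.350, in T/ILC2-like cells, and Hist1h2ae at 0.354 in dendritic cell-like cells. Hist1h2ac at 3.52 and Hist1h1b at 2.33 were higher in HFD macrophage-like cells, in which 10 LFD and 24 HFD cells were cycling. The opposite directions of Hist1h1b go with opposite differences in the share of cycling cells, which was 26.6% in LFD and 14.04% in HFD T/ILC2-like cells and 1.79% and 4.72% in macrophage-like cells, and the part of that share was not tested.

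Genes that work with the canonical histones were described for comparison. Of 11 genes listed as replication-independent histones, most of which give polyadenylated mRNAs, Cenpa, the centromeric H3 variant, had cycling to non-cycling ratios of 3.77 to 19.5, and H2afx, which also gives an mRNA with a stem-loop, and H2afz were at least 2-fold higher in 10 of 10 comparisons, whereas H2afj, H3f3a and H3f3b reached 2-fold in none. Of 15 genes of histone gene activation and mRNA processing, Ccne1, which drives entry into S phase, and Eri1, a nuclease that trims histone mRNA, were at least 2-fold higher in 10 of 10 comparisons. Slbp was so in 5 (1.39 to 3.75), and Lsm10, Cpsf3 and Sympk in none. Of 9 histone chaperones, Asf1b had ratios of 7.63 to 68.1, and Chaf1a, Chaf1b, Hirip3 and Nasp were at least 2-fold higher in 10 of 10, whereas Atrx and Daxx reached 2-fold in none. The diet ratios of these lists in cycling cells lay near 1. Their medians over the 5 types were 0.897 to 1.12 for replication-independent histones, 1.00 to 1.12 for mRNA processing and 1.00 to 1.06 for chaperones. At most 2 genes of a list were past 2-fold in a type: 1 higher replication-independent histone in B-like (2.56% of all genes), 2 lower ones in plasma cell-like (7.06%) and 2 higher processing genes in endothelial-like cells (5.32%).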

How the data were processed

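Single-cell RNA-seq data of live eYFP+ gWAT SVF cells were used, 2 libraries with 1 per diet. The authors deposited UMI counts, not normalised, as gene by barcode matrices made with Cell Ranger 4.0.0 and, per the submitters' processing notes, aligned with STAR to mm10; the other deposited files named their rows and columns. Reads that map to several genes are not counted by this tool in its usual setting, which bears on near-identical histone genes. The notes also name Seurat 4.1.0 and bcl2fastq 2.17.1.14.

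Cells were kept with 500 to 40000 UMIs, under 12.5% mitochondrial UMIs and at least 100 genes. A cell took the type with the largest share of its markers with a UMI, if that share was at least 0.3 and led the next by at least 0.1. Stromal-like and mesothelial-like cells were first treated as one type and then split at a share of 0.5 of the mesothelial markers. Cells with markers of several types stayed unassigned, which stands in for a doublet caller. The members, marker lists, gene lists and naming rule were chosen with earlier results of these data known, and the numeric limits of the type and cycling rules after marker values had been seen.

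Counts were summed per library, type and state and scaled to CPM, with exact Poisson intervals for levels, exact conditional binomial intervals for ratios and Clopper-Pearson intervals for shares (95%, counting error only). There was no test across genes and hence no p-value. A gene was compared with at least 20 UMIs over the cells compared, and a type with at least 50 non-cycling or 30 cycling cells on either side. Where a group had no UMI, no ratio is given. Named were genes with at least 200 UMIs, and in a diet comparison those at least 2-fold apart whose interval left out 1. The ratio intervals were checked on simulated counts. Python 3.11.15, numpy 2.4.6, scipy 1.17.1, pandas 2.3.3 and matplotlib 3.10.9 were used. Transcripts came from GENCODE M21 and promoters from RefSeq, for 62 of 67 genes. Alternatives were a stricter cell filter, its parts, median-ratio scaling, the mean over cells, stricter type and cycling rules, other count minimums, and leaving out the 1% of cells richest in histone UMIs, Hist1h2bc, or cells without both S and G2/M markers. Leaving out Hist1h2ap and Hist1h1b was a further one. It, the last 2 and the parts of the filter were added after the data had been seen, as were the share of Hist1h1b, the class sums and the single genes Hist1h2ap and Hist1h1b in these alternatives.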

Additional observations from a re-analysis of the deposited data

Results flagged for a closer look

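In non-cycling cells the HFD to LFD ratio of Hist1h2bc lay above 1 in stromal-like cells (1.05) and below 1 in plasma cell-like cells (0.447), with counting intervals on opposite sides of 1. For the sum of canonical histones in non-cycling cells the same held for stromal-like (1.09) and endothelial-like cells (0.770), although the stromal-like ratio was 0.940 under the stricter cell filter and 1.01 with median-ratio scaling, and in cycling cells for plasma cell-like (1.11) and mesothelial-like cells (0.893). With 1 library per diet, these differences between types were not tested.

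Canonical histone UMIs also occurred in cells that entered no comparison. Cells without a type had 277 (LFD) and 335 CPM (HFD) in sum. In mural-like cells, 5 in LFD and 8 in HFD, it was at 292 and 186 CPM from 13 and 5 UMIs. In cells between the cycling and non-cycling limits it was at 203 and 224 CPM. All of these lay above the level that 3 counts would give in the same cells.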

How the results depend on the processing

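No paired analysis was possible because each diet had 1 library. The endothelial-like Hist1h2ap ratio stayed below 1 under the alternatives run, at 0.117 to 0.211 over all cells and 0.257 to 0.472 in cycling cells, the last from 13 HFD cells. The stricter cell filter and its mitochondrial limit alone left 11 and 12 HFD cycling cells, under the minimum of 30, with ratios of 0.452 and 0.627. The number of captured genes was 36 to 63 of 67. Single named genes past 2-fold with an interval that left out 1 gave 214 recomputed ratios, and smaller ratios are not in this count. Of the 214, 205 stayed within their interval, 8 moved beyond it and 1 turned. The one that turned was Hist1h1a in all stromal-like cells, at 0.549 under the stricter cell filter. Hist1h2ap and Hist1h1b in cycling cells gave 80 recomputed ratios, of which 72 stayed, 5 moved and 3 turned. Depth limits the rest: with about 20 UMIs the interval of a 2-fold ratio can hold 1, and 43 genes had fewer than 200 UMIs. The cause of the following shifts was not tested.

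The stricter cell filter turned Hist1h1b in cycling stromal-like (0.330) and mesothelial-like cells (0.897), its UMI limits alone turned the former (0.836), and it turned the non-cycling stromal-like sum (0.940). It moved the macrophage-like non-cycling sum to 1.53, the stromal-like cycling sum to 0.791, the H1 ratio to 1.12 in mesothelial-like and 1.07 in stromal-like cells and the H2A ratio to 0.440 and 0.251. Its UMI limits alone gave 1.15 for H1 in stromal-like cells and, for H2A, 0.494 in mesothelial-like and 0.406 in stromal-like cells. The cycling to non-cycling ratio became 18.9 in LFD B-like, 3.68 in HFD plasma cell-like and 1.26 in HFD stromal-like cells, and the share of cells with a histone UMI after thinning 38.0% and 41.3%. Under the main filter that share was 70.1% and 74.6% over all passing cells without thinning.

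Median-ratio scaling moved the non-cycling sum to 0.945 in mesothelial-like, 1.12 in plasma cell-like and 1.01 in stromal-like cells, the cycling sum to 0.817, 1.20 and 0.877, the plasma cell-like H2A ratio to 0.887 and the plasma cell-like cycling to non-cycling ratio to 2.37 (LFD) and 2.55 (HFD). A stricter cycling minimum turned the stromal-like cycling sum to 1.01, moved the B-like one to 0.961 and the stromal-like H1 ratio to 1.57, and gave cycling to non-cycling ratios of 7.80 in LFD B-like, 2.48 in LFD endothelial-like, 1.46 (LFD) and 1.29 (HFD) in mesothelial-like, 3.82 in HFD plasma cell-like, and 1.65 and 1.54 in stromal-like cells. With S and G2/M markers required, the cycling sum was 1.16 in endothelial-like and 0.848 in mesothelial-like cells, and in endothelial-like cells H1 was at 2.02 and H2A at 0.766. The mean over cells put endothelial-like H2A at 0.381. Without the 1% of cells richest in histone UMIs, the cycling to non-cycling ratio was 3.29 in HFD plasma cell-like, and 1.48 (LFD) and 1.27 (HFD) in stromal-like cells. Without Hist1h2bc it was 8.36 (LFD) and 8.04 (HFD) in B-like, 3.97 and 3.81 in endothelial-like, 3.54 and 2.70 in mesothelial-like, 4.14 and 3.73 in plasma cell-like and 3.58 and 2.75 in stromal-like cells. Without Hist1h2ap and Hist1h1b it turned in mesothelial-like cells (0.974 and 0.915) and was 3.01 and 3.40 in B-like, 1.34 and 1.81 in endothelial-like, 2.13 and 2.59 in plasma cell-like, 1.16 and 1.10 in stromal-like and 2.53 in LFD T/ILC2-like cells.

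The number of canonical histone genes past a 2-fold diet ratio over all cells of a type was 3 in B-like, 3 in T/ILC2-like, 2 in dendritic cell-like, 4 in endothelial-like, 2 in macrophage-like, 3 in mesothelial-like, 0 in neutrophil-like, 7 in plasma cell-like and 6 in stromal-like cells. With a minimum of 1 UMI, where 23.0% to 50.6% of all genes passed 2-fold, these were 25 of 57, 25 of 44, 20 of 36, 31 of 55, 19 of 39, 16 of 63, 17 of 22, 16 of 62 and 19 of 62, and are no result about these genes. With 50 UMIs the count fell to 1 of 9 in B-like (2.92% of all genes), 1 of 2 in dendritic cell-like (5.10%), 0 of 4 in macrophage-like (3.22%), 1 of 19 in mesothelial-like (2.93%) and 2 of 31 in plasma cell-like cells (5.42%). A stricter marker lead gave 1 of 16 in B-like (5.87%), 4 of 6 in dendritic cell-like (9.01%) and 3 of 35 in stromal-like cells (7.83%), the stricter cell filter 1 of 3 in macrophage-like (6.44%) and 4 of 36 in plasma cell-like cells (7.14%), and leaving out the top 1% of cells 1 of 17 in B-like cells (5.59%).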
